A study of Mus musculus with 6 samples.

Results

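Kinesins are motor proteins that bind microtubules, and most of them turn ATP hydrolysis into steps along the filament. They were followed here in mouse embryonic stem (ES) cells left for 0, 3 or 6 h in a synthetic auxin, 5-Ph-IAA, directed at a degron on DDX6, an RNA helicase of P-bodies that represses translation and promotes decapping of mRNA. Members were chosen by gene symbol: every protein-coding gene of the Kif and Kifc series, leaving out the adaptors Kif1bp and Kifap3. This gave 42 genes of 55487 in the count table. No count entered the choice of single members, but the family was taken up with earlier results of these data known, so a share of changed members is a description of the family and not independent evidence.

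All 6 libraries came from the D6AdP ES cell line, in which both Ddx6 alleles are DDX6-AID-mCherry, 1 Dcp1a allele is DCP1a-EGFP with the other wild type (+), and OsTIR1-FLAG is a transgene (Tg). OsTIR1 is a plant F-box protein that, bound to an auxin, marks proteins carrying the AID degron for degradation. The cells grew in ES medium with the MEK inhibitor PD0325901, the GSK3 inhibitor CHIR99021 and leukemia inhibiting factor, and were plated on fibroblast feeder cells arrested with Mitomycin-C. The 0 h group (2 libraries) was taken before treatment, and the 3 h and 6 h groups (2 libraries each) after that time in 500 nM 5-Ph-IAA. The 0 h cells carry the same tagged alleles and transgene as the treated cells. No treated cells without the degron and no untreated cells kept for 3 or 6 h are among the libraries used here, so loss of DDX6, the compound itself and time in culture cannot be told apart. Nothing in the labels says whether libraries of 1 time were grown as separate cultures, so a p-value reflects the spread among these libraries alone, and that spread may be technical.

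The libraries held 16357142 to 21846959 counts, so that 3 counts stood for 0.137 to 0.183 CPM, that is, counts scaled to libraries of equal size. Levels are given as CPM after TMM scaling, a correction for differences in library composition. Ddx6 mRNA was at 267 and 250 CPM at 0 h, 269 and 271 CPM at 3 h, and 258 and 247 CPM at 6 h, which does not check the labels because the degron acts on the protein. All 8 ES cell markers, Pou5f1, Sox2 and Nanog among them, were detected in every library, with a summed level of 3842 to 4238 CPM. All 16 fibroblast markers were detected too, with a summed level of 17111 to 19527 CPM, so each library is a mixture of ES and feeder RNA. In such bulk RNA, a change in the number of cells of a type and a change in RNA per cell cannot be told apart. Of 5 neuron markers, Snap25, Syt1 and Rbfox3 were too low to be tested.

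Kinesins do 2 broad kinds of work. Mitotic kinesins build the bipolar spindle, move and align chromosomes and organise the midzone at which a dividing cell is cut. Transport kinesins carry vesicles, mitochondria, ciliary parts and RNA along interphase microtubules, and several are best known from axons. The 42 genes were divided by these roles into 15 mitotic, 15 transport and 12 other kinesins, the last acting in cilia, in microtubule dynamics or in signalling without known movement.

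The classes differed in abundance. The median level per kilobase of exon, averaged over the 6 libraries, was 17.6 CPM per kb for the 15 mitotic, 6.33 for the 15 transport and 0.333 for the 12 other kinesins. The single highest level was nonetheless that of a transport kinesin, Kif5b, the widely expressed heavy chain of conventional kinesin, at 67.7 CPM per kb. It was followed by Kif20a, which brings the chromosomal passenger complex to the midzone, at 46.8 CPM per kb. A filter on low counts was passed by 36 genes: 14 mitotic, 14 transport and 8 other. The 6 that did not pass were Kif2b and Kif12, with 0 counts in all 6 libraries, and Kif6, Kif17, Kif19a and Kif28, each under 0.5 CPM in every library.

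**Figure D1:**
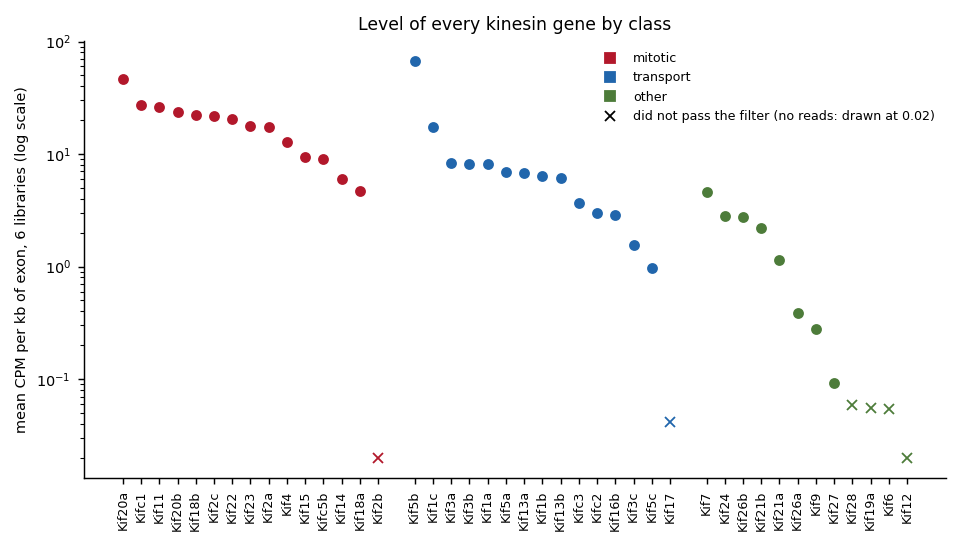
Mean CPM per kilobase of exon over the 6 libraries (log axis) for each of the 42 kinesin genes, coloured by class; crosses are genes that did not pass the filter. The mitotic points lie mostly above the transport points, while Kif5b, at 67.7 CPM per kb, is the highest of all.

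Of a library's counts, the 42 genes together took 0.273% to 0.277% in the 4 libraries of 0 and 3 h. In both 6 h libraries the share was higher, at 0.290% and 0.293%. These shares are of raw counts, without TMM scaling. With it the summed level of the family was 2749 and 2784 CPM at 0 h, 2792 and 2794 CPM at 3 h, and 2860 and 2883 CPM at 6 h. The summed level of the mitotic class overlapped between the times, at 1460 and 1524 CPM at 0 h, 1488 and 1492 CPM at 3 h, and 1471 and 1544 CPM at 6 h. The summed transport level was 1176 and 1148 CPM at 0 h, 1191 and 1187 CPM at 3 h, and 1238 and 1200 CPM at 6 h. That of the other class was 113 and 112 CPM at 0 h, 113 and 115 CPM at 3 h, and 151 and 140 CPM at 6 h. The transport and other classes thus had their highest sums in the 6 h libraries, and Kif5b alone makes up much of the transport sum.

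The classes also differed in their promoters, the stretch from 250 bases before to 50 bases after each gene's start in RefSeq (GRCm38.p6), which was matched for 33 of the 42 genes. The cell cycle genes homology region (CHR) is an element of promoters active in late G2 and mitosis, where MuvB complexes bind, and the CCAAT box beside it is bound by NF-Y. CHR was searched as TTTGAA or TTCGAA and the CCAAT box as CCAAT, both on either strand; matches of the 2 motifs can share at most 1 base. A CHR match was present in 11 of 14 mitotic promoters (78.6%), in 0 of 10 transport promoters and in 3 of 9 others (33.3%), against 19.4% of all 27018 promoters of this length and 13.9% of the 11150 belonging to genes tested here. Both motifs together were present in 8 of 14 mitotic promoters (57.1%), against 7.7% of all promoters. The CCAAT box alone was less particular, in 9 mitotic (64.3%), 3 transport (30%) and 4 other promoters (44.4%), against 37.9% of all. For 5 of the 33 genes the RefSeq start lay over 300 bases from the GENCODE start, Kif2c, Kif4 and Kif14 of the mitotic class among them.

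**Figure D2:**
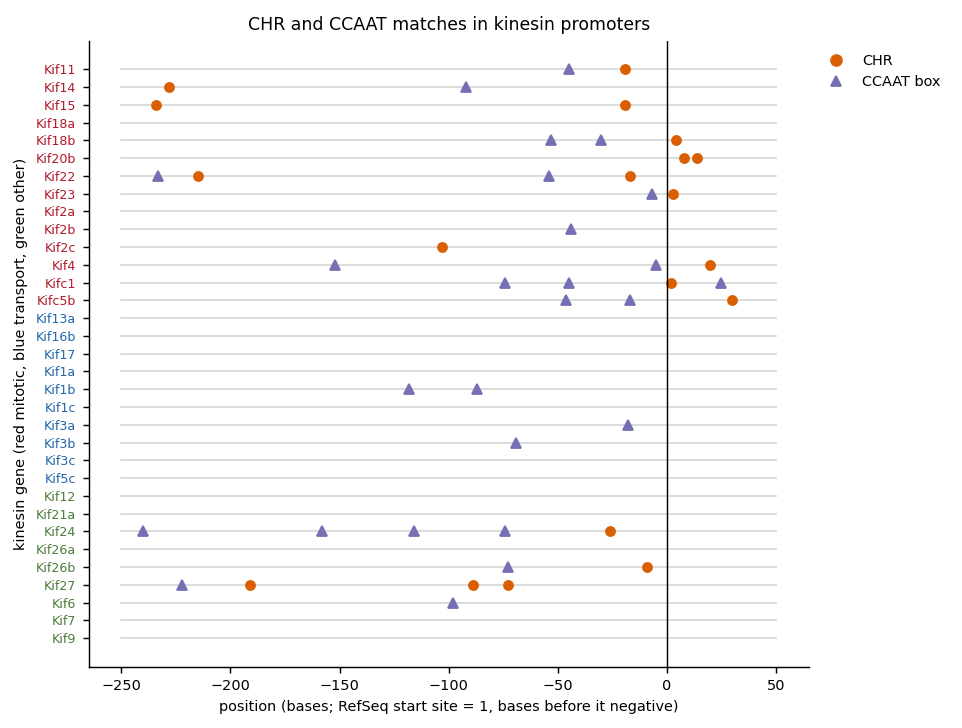
First base of each CHR (circles) and CCAAT (triangles) match, in bases from the RefSeq start site, for the 33 kinesin promoters found, with gene names coloured by class. Circles lie in 11 of 14 mitotic rows and in 0 of 10 transport rows.

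Printed below are the promoters of the mitotic members that rose (Kif23, Kif20b) and of the more abundant one that fell (Kifc1), which all hold CHR, and of Kif26a, the member with the largest change, which holds neither motif. They lie at chr9:61946750-61947049 on the minus strand, chr19:34922108-34922407 on the plus strand, chr17:33890584-33890883 on the minus strand and chr12:112145958-112146257 on the plus strand of GRCm38.p6. Each is written 5′ to 3′ along the gene, with CHR and CCAAT matches on either strand in capitals. Counting the start site as 1, the CHR match begins at base 3 in Kif23, at bases 8 and 14 in Kif20b and at base 2 in Kifc1.
Kif23: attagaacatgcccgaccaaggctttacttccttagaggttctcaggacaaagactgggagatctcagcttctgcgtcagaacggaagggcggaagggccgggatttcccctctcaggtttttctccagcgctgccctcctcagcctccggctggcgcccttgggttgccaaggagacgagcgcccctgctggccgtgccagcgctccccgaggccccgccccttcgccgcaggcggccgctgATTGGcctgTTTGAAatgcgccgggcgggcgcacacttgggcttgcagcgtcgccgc
Kif20b: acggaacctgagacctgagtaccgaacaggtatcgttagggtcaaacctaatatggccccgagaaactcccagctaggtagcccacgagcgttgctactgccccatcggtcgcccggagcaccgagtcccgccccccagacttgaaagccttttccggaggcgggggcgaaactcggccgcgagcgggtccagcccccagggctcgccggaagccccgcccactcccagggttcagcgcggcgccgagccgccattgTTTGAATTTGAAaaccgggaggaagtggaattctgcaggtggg
Kifc1: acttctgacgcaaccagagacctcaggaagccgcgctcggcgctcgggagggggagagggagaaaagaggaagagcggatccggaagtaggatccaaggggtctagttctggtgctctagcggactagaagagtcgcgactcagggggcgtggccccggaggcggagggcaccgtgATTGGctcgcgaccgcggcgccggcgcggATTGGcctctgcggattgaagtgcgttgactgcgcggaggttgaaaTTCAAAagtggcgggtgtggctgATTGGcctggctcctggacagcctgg
Kif26a: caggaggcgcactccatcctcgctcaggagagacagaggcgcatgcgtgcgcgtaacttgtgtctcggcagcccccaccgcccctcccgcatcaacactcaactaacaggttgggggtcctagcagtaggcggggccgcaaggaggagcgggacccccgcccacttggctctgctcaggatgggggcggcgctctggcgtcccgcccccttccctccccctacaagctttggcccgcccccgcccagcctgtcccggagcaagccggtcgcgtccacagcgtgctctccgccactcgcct

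At 3 h against 0 h no kinesin was called at an adjusted p under 0.05 in edgeR's quasi-likelihood test, where 0.140% of the 15748 genes tested were called (0.0508% higher and 0.0889% lower). Unadjusted edgeR p was under 0.05 for 5 of the 36 kinesins and for 1679 of the 15748 genes. DESeq2 and limma voom also called 0 kinesins, with 12 and 30 of all genes called. The median log2 fold change was 0.01 for the mitotic, 0.05 for the transport and -0.01 for the other kinesins. The member nearest to the threshold was Kif2c, a kinesin that takes microtubule ends apart and corrects wrong chromosome attachments. It was at 97.9 and 102 CPM at 0 h, 91.2 and 86.8 CPM at 3 h, and 94.7 and 97.7 CPM at 6 h. The 3 h libraries were the lowest, without overlap with 0 h, and the log2 fold change of -0.16 ± 0.04 (SE, n = 2 libraries a group) had an edgeR adjusted p of 0.178.

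At 6 h against 0 h, 13 of the 36 kinesins were called (36.1%), against 22.3% of all genes tested. Of these 11 rose (30.6%, against 10.0% of all genes) and 2 fell (5.56%, against 12.3% of all genes). The transport class had 6 higher and 0 lower of 14, with a median log2 fold change of 0.15 and 12 of 14 values above 0. The mitotic class had 2 higher and 2 lower of 14, with a median of -0.06 and 10 of 14 values below 0. The other class had 3 higher and 0 lower of 8, with a median of 0.20, and the median over all genes tested was 0.00. No test was made between the classes, because genes of a class are not replicates and the family was taken up with results known. DESeq2 called 10 of the 36 kinesins and 1697 of all 15748 genes, where edgeR called 3515 genes.

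**Figure D3:**
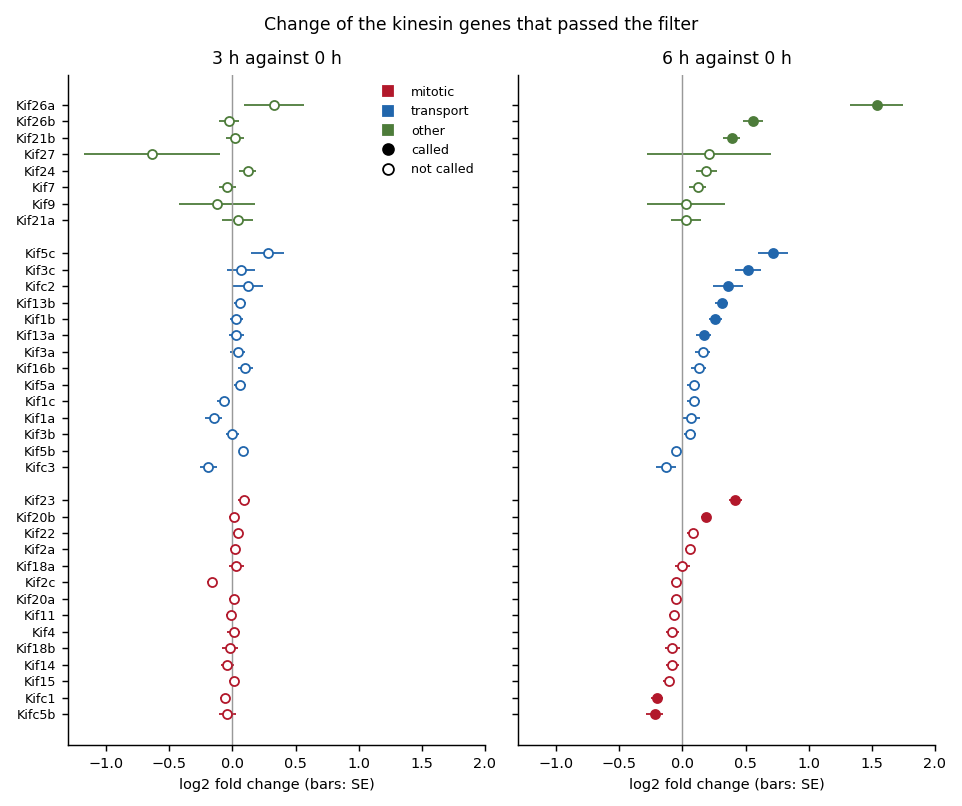
Log2 fold change with its SE for the 36 kinesins that passed the filter, at 3 h and at 6 h against 0 h, coloured by class; filled points were called at an edgeR adjusted p under 0.05. No point is filled at 3 h against 0 h, and at 6 h against 0 h the filled transport and other points all lie to the right of 0 while the mitotic class has 2 on each side.

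Among mitotic kinesins the larger of 2 rises was that of Kif23 (ENSMUSG00000032254, chr9:61915905-61946774 on the minus strand of GRCm38), the motor of centralspindlin, which bundles midzone microtubules and is needed for cytokinesis. Kif23 was at 122 and 124 CPM at 0 h, 133 and 129 CPM at 3 h, and 152 and 175 CPM at 6 h. The times followed each other without overlap, and the rise at 6 h was 1.33-fold (log2 0.42 ± 0.05, SE, edgeR adjusted p = 2.43e-05). At 3 h the Kif23 log2 fold change was 0.09 ± 0.05, with an edgeR adjusted p of 0.555. Kif20b, which also acts in the completion of cytokinesis, was at 150 and 163 CPM at 0 h, 159 and 158 CPM at 3 h, and 178 and 180 CPM at 6 h. Its 2 highest libraries were those of 6 h, and the 1.14-fold rise (log2 0.19 ± 0.04, SE) had an edgeR adjusted p of 0.00297.

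The 2 mitotic members that fell are near copies of each other. Kifc1 is a minus-end directed motor that focuses spindle poles, and it was at 96.3 and 103 CPM at 0 h, 96.1 and 95.1 CPM at 3 h, and 85.3 and 88.2 CPM at 6 h. Its fall by 0.20 on the log2 scale (SE 0.05) had an edgeR adjusted p of 0.00408, and of 0.0660 without the second 0 h library. Kifc5b was at 34.7 and 36.4 CPM at 0 h, 34.2 and 35.3 CPM at 3 h, and 27.7 and 33.5 CPM at 6 h. Its fall by 0.22 (SE 0.07) had an edgeR adjusted p of 0.0471, just inside the threshold, and 11 of 17 alternatives ended that call. Without the first 6 h library, the lower of that pair, the Kifc5b value was -0.08 with an adjusted p of 0.502. Of all 50-base stretches in their transcripts, 45.8% of those of Kifc1 also occur in Kifc5b and 40.9% of those of Kifc5b in Kifc1, so how the counts divide between these genes is uncertain.

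Of the 3 most abundant mitotic kinesins per kilobase, Kifc1 is described above, and Kif20a and Kif11 did not pass the test in any comparison. Kif20a was at 204 and 205 CPM at 0 h, 206 and 207 CPM at 3 h, and 194 and 202 CPM at 6 h, with overlapping exons of Cdc23 on the other strand over 29.3% of its length. Kif11, which slides antiparallel microtubules to make the spindle bipolar, was at 194 and 202 CPM at 0 h, 194 and 200 CPM at 3 h, and 179 and 197 CPM at 6 h. Kif15, which can stand in for Kif11, was at 105 and 106 CPM at 0 h, 103 and 110 CPM at 3 h, and 97.6 and 98.5 CPM at 6 h. The Kif15 values were lowest at 6 h without overlap, but its difference of -0.11 ± 0.04 from 0 h had an edgeR adjusted p of 0.0914. The remaining mitotic members include the chromosome-arm motors Kif4 and Kif22, the alignment motor Kif18a and its relative Kif18b. The others are the cytokinesis kinesin Kif14 and the microtubule depolymerases Kif2a and Kif2c. At 6 h against 0 h these remaining members had log2 fold changes from -0.08 to 0.08, and none was called in any comparison.

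The mRNAs of proteins that work with mitotic kinesins were also called in both directions, at a share near that of all genes. Of 24 spindle and midzone partners tested, 3 rose and 3 fell (12.5% each, against 10.0% and 12.3% of all genes), with a median of -0.01. The list includes Cenpe, itself a mitotic kinesin whose symbol lies outside the Kif and Kifc series, which was not called (0.05 ± 0.05). The mitotic kinase Aurkb (log2 0.22 ± 0.05, edgeR adjusted p = 0.00579), the spindle assembly factor Dlgap5 (0.16 ± 0.04, 0.0142) and the microtubule polymerase Ckap5 (0.11 ± 0.04, 0.0428) were higher. Lower were Ect2, which binds centralspindlin at the midzone (-0.22 ± 0.04, 0.00188), the mitotic cyclin Ccnb1 (-0.21 ± 0.04, 0.00238) and the anaphase activator Cdc20 (-0.13 ± 0.04, 0.0228). Kif23 thus rose while Ect2 fell. Racgap1, the other subunit of centralspindlin (-0.07 ± 0.04, edgeR adjusted p = 0.246), and the midzone gene Prc1 (-0.05 ± 0.04) were not called. The called share of the list, 25.0%, lies near the 22.3% of all genes.

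Among transport kinesins the largest rise was that of Kif5c (ENSMUSG00000026764, chr2:49619298-49774778, plus strand), a heavy chain of conventional kinesin that is most abundant in neurons. Kif5c was at 5.81 and 5.01 CPM at 0 h, 6.48 and 6.57 CPM at 3 h, and 8.80 and 8.91 CPM at 6 h. Its 3 times did not overlap, and the 1.64-fold rise at 6 h (log2 0.72 ± 0.12, SE) had an edgeR adjusted p of 0.000575. The sister heavy chains differed from it. Kif5a was not called (log2 0.09 ± 0.05 at 6 h), and Kif5b, with 536 and 537 CPM at 0 h, 557 and 577 CPM at 3 h, and 519 and 516 CPM at 6 h, was highest at 3 h and lowest at 6 h. Kif5b did not pass the test at 6 h against 0 h (-0.05 ± 0.03, edgeR adjusted p = 0.255). Per kilobase it remained far above Kif5c, at 67.7 against 0.970 CPM per kb over the 6 libraries.

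The kinesin-2 family, which drives transport within cilia and of several cargoes, showed a similar split. Kif3c was at 10.0 and 9.74 CPM at 0 h, 11.4 and 9.39 CPM at 3 h, and 14.0 and 14.2 CPM at 6 h. The 6 h libraries were the highest, and the 1.43-fold rise (log2 0.52 ± 0.10, SE) had an edgeR adjusted p of 0.00174. Over 35.3% of its exon length Kif3c overlaps 1110002L01Rik on the other strand, and the strand setting of the counting is not given in the sources used here. The neighbour 1110002L01Rik was at 16 and 15.1 CPM at 0 h, 13.2 and 13.2 CPM at 3 h, and 17.1 and 17.4 CPM at 6 h, so it too was highest at 6 h without overlap. Its log2 fold change was 0.15 ± 0.08 at 6 h against 0 h (edgeR adjusted p = 0.190) and 0.39 ± 0.08 at 6 h against 3 h (0.00311), and its part in the Kif3c counts was not tested. Kif3a, the partner subunit of kinesin-2, was at 29.0 and 28.4 CPM at 0 h, 28.8 and 30.4 CPM at 3 h, and 32.0 and 32.3 CPM at 6 h. It was the uncalled member nearest to the threshold (log2 0.16 ± 0.06, edgeR adjusted p = 0.0636), and Kif3b stood at 0.06 ± 0.05.

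The kinesin-3 family, carriers of synaptic vesicle precursors, mitochondria and endosomes, gave 3 of the 6 transport calls. Kif13b was at 71.7 and 73.6 CPM at 0 h, 78.6 and 73.2 CPM at 3 h, and 90.8 and 89.7 CPM at 6 h, a rise of 1.24-fold at 6 h (log2 0.31 ± 0.05, SE, edgeR adjusted p = 0.000140). Kif1b was at 107 and 101 CPM at 0 h, 107 and 105 CPM at 3 h, and 129 and 120 CPM at 6 h, a rise of 1.20-fold (log2 0.26 ± 0.05, edgeR adjusted p = 0.000645). In both genes the 6 h libraries stood above all the others. Kif13a was at 55.4 and 49.0 CPM at 0 h, 53.3 and 53.2 CPM at 3 h, and 60.5 and 56.8 CPM at 6 h. Its edgeR adjusted p of 0.0489 (log2 0.17 ± 0.06) was just inside the threshold, and without the second 0 h library it was 0.426 with a log2 fold change of 0.08. Kif16b, a motor of early endosomes, was not called (0.13 ± 0.06).

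Kifc2, a C-terminal motor, was at 9.07 and 11.9 CPM at 0 h, 12.3 and 10.6 CPM at 3 h, and 13.8 and 13.3 CPM at 6 h. The 0 h pair differed widely, and the log2 fold change of 0.36 ± 0.12 (edgeR adjusted p = 0.0357) fell to 0.19 (0.288) without the first 0 h library and rose to 0.58 (0.00234) without the second. Its relative Kifc3 was lower by 0.13 on the log2 scale (SE 0.08) and was not called.

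The largest change of any kinesin belonged to the other class. Kif26a (ENSMUSG00000021294, chr12:112146208-112181747, plus strand), a kinesin without motor activity known from growth factor signalling in enteric neurons, was at 1.19 and 1.90 CPM at 0 h, 1.94 and 1.99 CPM at 3 h, and 4.52 and 4.62 CPM at 6 h. The reads behind these levels were few, from 23 to 86 counts a library. The 6 h libraries were far above the rest, and the rise was 2.91-fold (log2 1.54 ± 0.21, SE, edgeR adjusted p = 6.70e-05). Its relative Kif26b, which acts in cell adhesion during kidney development, was at 36.5 and 33.9 CPM at 0 h, 32.6 and 36.3 CPM at 3 h, and 57.8 and 46.3 CPM at 6 h. The Kif26b rise of 1.48-fold (log2 0.56 ± 0.08) had an edgeR adjusted p of 0.000137, and at 3 h its log2 fold change was -0.03 ± 0.08 (not called).

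Kif21b, which regulates microtubule growth in neurons and T cells, was at 24.2 and 24.6 CPM at 0 h, 24.5 and 24.8 CPM at 3 h, and 33.3 and 30.6 CPM at 6 h. The 4 libraries of 0 and 3 h were nearly equal and both 6 h libraries were above them (log2 0.39 ± 0.07, edgeR adjusted p = 0.000414). Its paralog Kif21a was not called (0.03 ± 0.12). The Hedgehog regulator of the ciliary tip, Kif7, was at 21.0 and 20.4 CPM at 0 h, 21.0 and 19.3 CPM at 3 h, and 22.8 and 22.3 CPM at 6 h (0.12 ± 0.07, not called). Kif24, which restrains the formation of cilia, was at 20.3 and 21.7 CPM at 0 h, 23.7 and 21.9 CPM at 3 h, and 23.0 and 25.0 CPM at 6 h (0.19 ± 0.08, not called). Kif27, the paralog of Kif7, had the largest uncalled value of the class (0.21 ± 0.49), but lay near the detection limit at 0.518 and 0.510 CPM at 0 h, 0.142 and 0.509 CPM at 3 h, and 0.844 and 0.376 CPM at 6 h. A difference in Kif27, or in Kif9 at 0.904 to 1.56 CPM, of the size seen for the called transport kinesins was not detectable at this depth.

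**Figure D4:**
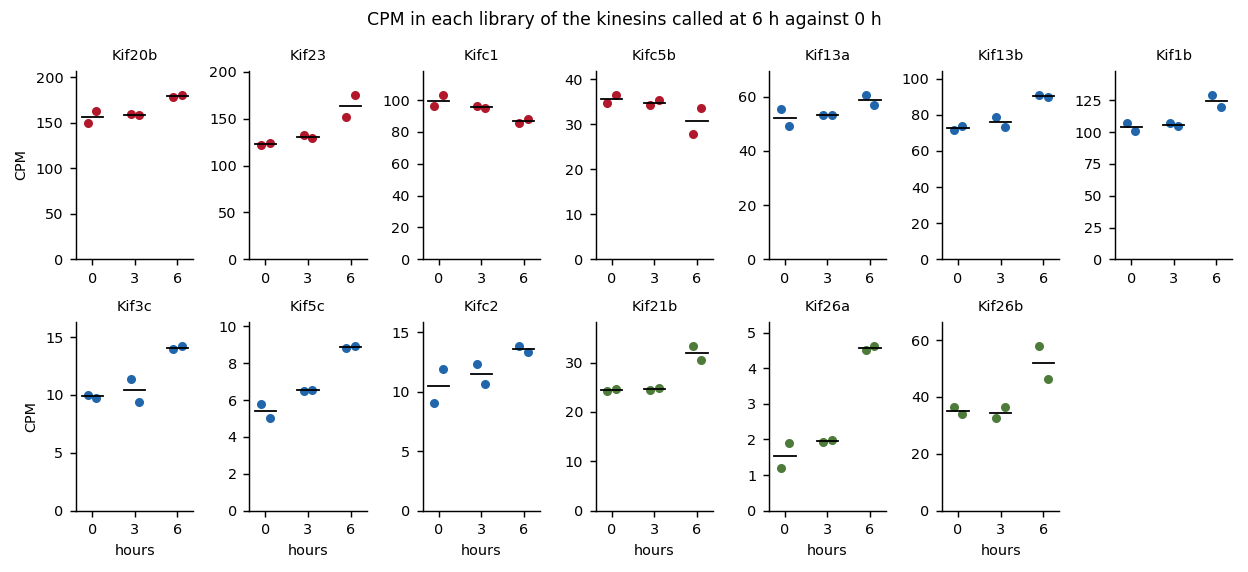
CPM of each library at 0, 3 and 6 h, with the mean of the 2 libraries as a line, for the 13 kinesins called at 6 h against 0 h; each vertical axis starts at 0 and has its own scale. The Kif26a, Kif5c and Kif26b points at 6 h stand well above 0 h, while those of Kif13a, Kif20b and Kifc1 are a small step away.

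At 6 h against 3 h, a comparison that shares its 6 h libraries with the one above, 13 of 36 kinesins were called, against 21.7% of all genes tested. Of these 11 rose, against 9.89% of all genes, and 2 fell, against 11.8%. The mitotic class had 2 higher and 1 lower (median -0.05), the transport class 6 higher and 1 lower (median 0.15), and the other class 3 higher (median 0.27). Kif23 rose by 0.32 ± 0.05, Kif20b by 0.18 ± 0.04, Kif13b by 0.25 ± 0.05, Kif1b by 0.23 ± 0.05, Kif3c by 0.44 ± 0.10 and Kif5c by 0.44 ± 0.12 on the log2 scale. In the other class Kif26a rose by 1.22 ± 0.20, Kif26b by 0.59 ± 0.08 and Kif21b by 0.37 ± 0.06. The mitotic Kifc1 fell by 0.14 (SE 0.05, edgeR adjusted p = 0.0352). The Kifc1 call held in 8 of 17 alternatives and was lost, among others, in DESeq2 (0.164) and on leaving out any 1 of the 3 h or 6 h libraries (0.0513 to 0.201). Kif5b was called in this comparison and in neither against 0 h, with a fall by 0.13 on the log2 scale (SE 0.03, edgeR adjusted p = 0.00682). Without the second 3 h library, which held the highest Kif5b level, the Kif5b log2 fold change was -0.10. Kif15 was the uncalled member nearest to the threshold (-0.12 ± 0.04, edgeR adjusted p = 0.0656).

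The kinesin-3 motors Kif1a and Kif1c were also called at 6 h against 3 h and not against 0 h. Kif1a, a carrier of synaptic vesicle precursors, was at 81.4 and 73.7 CPM at 0 h, 73.5 and 66.3 CPM at 3 h, and 87.8 and 75.5 CPM at 6 h (log2 0.22 ± 0.07 from 3 to 6 h, edgeR adjusted p = 0.0260). Kif1c, a carrier of dense-core vesicles, was at 134 and 119 CPM at 0 h, 122 and 119 CPM at 3 h, and 137 and 131 CPM at 6 h (0.16 ± 0.05, 0.0278). The Kif1a value was 0.12 (adjusted p = 0.290) without the first 6 h library, 0.16 (0.254) without the second 3 h library and 0.33 (0.00281) without the second 6 h library. DESeq2 called neither gene (adjusted p = 0.0670 for Kif1a and 0.0963 for Kif1c), and leaving out either 3 h library or the first 6 h library also ended the Kif1c call (0.0861 to 0.178). Both were highest in the first 6 h and the first 0 h library. The summed fibroblast markers were highest in the same libraries, at 19527 and 17955 CPM at 0 h, 17480 and 17111 CPM at 3 h, and 19414 and 17523 CPM at 6 h. From 3 to 6 h, 16 of 16 fibroblast markers lay above 0, 5 were called higher and their median log2 fold change was 0.12. The mean log2 CPM of the markers was 8.62 and 8.61 at 3 h and 8.82 and 8.68 at 6 h, without overlap. Marker level thus ran with time, so a fit with it as a covariate cannot tell feeder content and time apart here. With the fibroblast marker level as a covariate the 6 h against 3 h value was 0.00 for Kif1a (edgeR adjusted p = 0.983) and 0.04 for Kif1c (0.705). Calls over all 15748 genes went from 3414 to 1905, and 7 kinesins were called in place of 13. Kif1b (0.12, adjusted p = 0.152) and Kifc1 (-0.06, 0.545) also lost this call, from 0.23 and -0.14 without the covariate. Kif3c (0.42, 0.0553) and Kif5c (0.37, 0.197) lost it from 0.44 each. Kif13b, Kif20b, Kif21b, Kif23, Kif26a, Kif26b and Kif5b kept the call, the Kif26b value moving from 0.59 to 0.34.

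At 6 h against 0 h, 0 of 16 fibroblast markers were called, against 22.3% of all genes, and their median was -0.02. With the covariate all 13 calls of that comparison were kept, with Kif26b at 0.55, and 16 kinesins were called in all. Calls over all 15748 genes went from 3515 to 4653. The ES cell markers moved in both directions at 6 h against 0 h, with a median of -0.05. Of the 8, 3 were called higher and 3 lower (75.0% called, against 22.3% of all genes). Among them Esrrb stood at -0.42 ± 0.03 (edgeR adjusted p = 2.86e-07) and Zfp42 at -0.29 ± 0.06 (0.00261), both singled out after their values were seen, and Nanog at 0.13 ± 0.03 (0.00610). The part of these markers in the kinesin changes was not tested. Which cells of the mixture carried any of these changes was not tested. Of the neuron markers, Tubb3 and Map2 could be tested, and neither was called at 6 h against 0 h (-0.03 ± 0.05 and 0.11 ± 0.11). Their summed list lay between 77.4 and 83.2 CPM in all libraries.

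**Figure D5:**
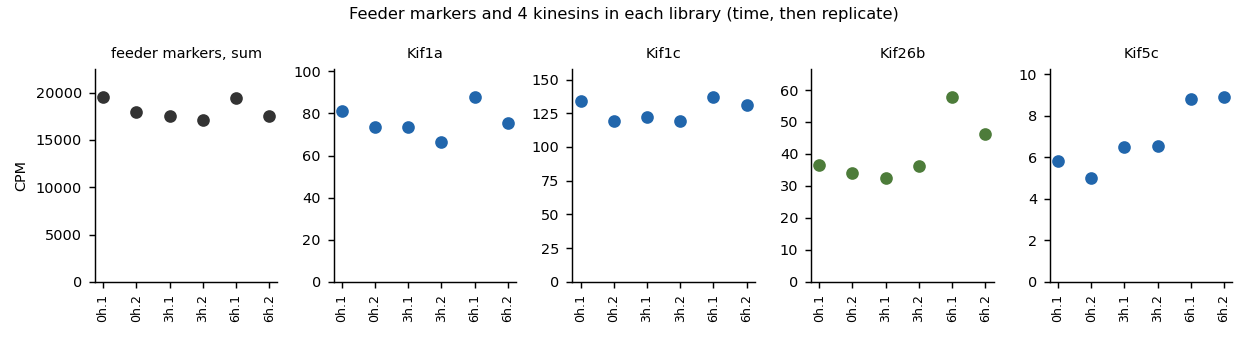
Summed CPM of 16 fibroblast markers and CPM of Kif1a, Kif1c, Kif26b and Kif5c in each of the 6 libraries, named by time and replicate; each axis starts at 0. The marker sum and Kif1a are high in 0h.1 and 6h.1, whereas Kif5c is highest in both 6 h libraries.

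On the cargo side of transport kinesins, 3 of 16 partners tested at 6 h against 0 h rose and 1 fell (25.0% called, against 22.3% of all genes), with a median of 0.04. Higher were the kinesin light chain Klc2 (log2 0.26 ± 0.08, edgeR adjusted p = 0.0252), the mitochondrial adaptor Trak1 (0.17 ± 0.05, 0.0123) and the scaffold Mapk8ip1 (0.25 ± 0.08, 0.0367). The lysosomal GTPase Arl8b, which recruits kinesin-1 and kinesin-3, was lower (-0.14 ± 0.04, 0.0238). Dynein and dynactin, the machinery of the opposite direction, had 2 genes higher and 2 lower of 25 tested, with a median of 0.03. Dynll2 (0.25 ± 0.04, 0.000489) and the adaptor Bicd1 (0.32 ± 0.11, 0.0418) were higher, and the regulators Pafah1b1 (-0.15 ± 0.03, 0.00495) and Ndel1 (-0.18 ± 0.05, 0.0195) were lower. No gene of the 3 partner lists was called at 3 h against 0 h, where 0.140% of all genes were called. For 6 h against 3 h the calls were 2 higher and 2 lower of the cargo partners, 1 higher and 2 lower of the spindle partners, and 2 higher and 1 lower of the dynein genes.

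DDX6 is a cofactor of microRNA silencing, and mouse ES cells are rich in microRNAs from the miR-290 and miR-302 clusters, so matches to their shared seed were counted in the kinesins' 3' UTRs. The RefSeq table holds 5 mature microRNAs with this seed, printed 5′ to 3′ with the seed, bases 2 to 8, in capitals.
mmu-miR-291a-3p: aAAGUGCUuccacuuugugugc
mmu-miR-294-3p: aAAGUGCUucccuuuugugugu
mmu-miR-295-3p: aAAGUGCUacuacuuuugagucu
mmu-miR-302b-3p: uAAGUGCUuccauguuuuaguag
mmu-miR-302d-3p: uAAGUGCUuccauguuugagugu

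A match to AGCACTT, which pairs with the seed, was present in the longest annotated 3' UTR of 0 of 15 mitotic, 5 of 15 transport (33.3%) and 1 of 12 other kinesins, against 14.9% of 20674 genes. The UTRs differed in length too, with medians of 528, 2759 and 867 bases and of 988 bases over all genes, and a longer UTR has more room for a match. The 6 genes were Kif3b, Kif3c, Kif5b, Kif5c, Kif13a and Kif26b. At 6 h against 0 h, 4 of them were called higher and 0 lower (median log2 fold change 0.35). Over all genes tested 10.0% were higher and 12.3% lower. Of the 30 tested kinesins without a match 7 were higher and 2 lower, with a median of 0.08. That group holds all 14 tested mitotic kinesins, whose median was -0.06, so seed match and class were not separated here. At 6 h the 4 that rose were Kif5c (0.72), Kif26b (0.56), Kif3c (0.52) and Kif13a (0.17), while Kif3b (0.06) and Kif5b (-0.05) were not called. Kif23, Kif20b and Kif26a rose without a match, and with 6 genes, unequal lengths and unequal classes the counts are a description only.

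The sites of the 4 genes that rose, and that of Kif3b for comparison, are shown with 10 bases on each side, in the sense of the transcript and with the seed match in capitals. In GRCm38 the matches lie at chr2:49773138-49773144 (Kif5c, plus strand), chr1:178932469-178932475 and chr1:178937860-178937866 (Kif26b, plus), chr12:3405290-3405296 (Kif3c, plus), chr13:46750444-46750450 (Kif13a, minus) and chr2:153332737-153332743 (Kif3b, plus).
Kif5c: ttctttctaaAGCACTTttccccctag
Kif26b, first: ggactgagaaAGCACTTtgaggaacct
Kif26b, second: gagaaaccaaAGCACTTtagtgagtct
Kif3c: ttctgctgtcAGCACTTaacaattcac
Kif13a: tgggagaagcAGCACTTtgttccatgg
Kif3b: ataggcatgaAGCACTTtgtaagactg

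Set beside the changes at 6 h, the promoter motifs gave no single direction. Of the 14 tested kinesins with a CHR match 3 were called higher (Kif23, Kif20b and Kif26b) and 2 lower (Kifc1 and Kifc5b), with a median of -0.06. Of the 15 tested kinesins with a promoter and no match 5 were higher and 0 lower, with a median of 0.12. The shares over all genes tested were 10.0% higher and 12.3% lower. Mitotic members hold 11 of the 14 CHR promoters and transport members 0, so motif and class were not separated. The promoters of Kif23 and Kifc1, printed above, each hold a CHR match at the start site and CCAAT boxes, and these genes moved in opposite directions.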

How the data were processed

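PolyA RNA was sequenced in 6 libraries. The authors deposited raw read counts for each Ensembl gene. Per the submitters' processing notes, GRCm38 (mm10), featureCounts 2.0.3, HISAT2 2.2.1 and fastp 0.22.0 were used; for strand setting, annotation release and multimapping the entry is: not given in the sources used here. Of 55487 IDs, 55227 had a symbol in GENCODE M21 (GRCm38), which gave exons and 3' UTRs of at least 50 bases.

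With R 4.3.3, filterByExpr (minimum 10 counts) left 15748 genes and 99.9% of the counts. TMM factors and edgeR 4.0.16's quasi-likelihood test were used in 1 fit of 3 group means over all 6 libraries, with 3 residual and 13.7 prior degrees of freedom, two-sided, with Benjamini-Hochberg adjustment over all genes tested and a threshold of 0.05. The SE is the log2 fold change divided by the square root of F. Replicates were no duplicates: chi-square per degree of freedom was 4.18, 1.97 and 6.46. Alternatives used DESeq2 1.42.0, limma 3.58.1 voom, other scaling and filters, a replicate block, a fibroblast marker covariate, the 4 libraries compared and leaving out each library.

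The members and lists were chosen with earlier results of these data known. Kinesins named with every library were those called, the 3 highest per kilobase in each class, the uncalled one nearest the threshold and the uncalled one with the largest change in each class; other kinesins are given by range or estimate. From each partner list came up to 3 called genes per direction with the smallest adjusted p. An overlap of 1 kinesin with a neighbouring gene is not reported here.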

Additional observations from a re-analysis of the deposited data

How the results depend on the processing

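Of 17 alternatives, 2 (no scaling factors and the earlier form of the edgeR test) were chosen after seeing the data. Under all of them 9 of the 13 calls at 6 h against 0 h were kept (Kif13b, Kif1b, Kif20b, Kif21b, Kif23, Kif26a, Kif26b, Kif3c and Kif5c), and 5 of the 13 at 6 h against 3 h (Kif13b, Kif21b, Kif23, Kif26a and Kif26b). Over the 26 called values, 55 of 442 combinations of value and alternative lost the call and 0 changed direction. Leaving out 1 library left a group of 1, and calls over all genes changed as well, so kinesin counts from those fits are not compared. The fibroblast marker covariate left 7 kinesin calls at 6 h against 3 h, where calls over all 15748 genes went from 3414 to 1905. In that comparison the covariate and time ran together. Deviations of same-numbered libraries correlated at 0.0372, 0.0401 and -0.0212, which cannot exclude an effect shared by libraries of 1 number. The summed fibroblast markers were higher in the first library at each time. A replicate block gave 1 kinesin call at 3 h (Kif2c, edgeR adjusted p = 0.0467), with 242 of all 15748 genes called against 22 without it. At 6 h against 0 h it gave 14 kinesins, with 4227 genes called against 3515. At 6 h against 3 h it gave 16 kinesins, with 4186 genes called against 3414.

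The median log2 fold change of mitotic kinesins at 3 h (0.0108) was -0.0476 with the covariate and ran from -0.0293 to 0.0328 when 1 library was left out, so it has no stable sign. That of transport kinesins at 3 h (0.0538) ran from 0.0157 to 0.0692. Counting Kif2a as other and Kif21a and Kif21b as transport moved the medians by less than the spread between replicates. At 6 h against 0 h the mitotic median (-0.0634) was -0.0278 without scaling factors and ran from -0.0780 to -0.0177 (without the first 6 h library). The transport median (0.147) was 0.178 with upper-quartile factors and 0.182 without scaling factors, and ran from 0.0965 (without the second 0 h library) to 0.180. Upper-quartile factors or none moved the median of all genes by at most 0.04. Other causes of these shifts were not tested. The 6 kinesins below the filter were not tested, and 2 libraries a group limit the precision of small changes.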
